A study of Mus musculus with 4 samples.

Results

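Lipid-associated macrophages are lung and tissue macrophages that take up lipid and cell debris at sites of injury, and in fibrotic lungs the cells called scar macrophages carry much of the same gene program. TREM2, a lipid-sensing receptor that signals through the adaptor TYROBP, is a hallmark of these cells, together with the glycoprotein GPNMB, the tetraspanin CD9 and the apolipoprotein APOE. The cells import fatty acids, store them in droplets and send cholesterol out again, and the resident alveolar macrophages of a healthy lung share the lipid-handling part of this program because they clear surfactant.

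Here 10 genes of this program, *Trem2*, *Gpnmb*, *Cd9*, *Cd36*, *Apoe*, *Abcg1*, *Lpl*, *Fabp5*, *Plin2* and *Arg1*, were followed across RNA-Seq libraries labelled as lung ILC2s. They were chosen by gene symbol from a table of 49315 genes, each symbol matched 1 row, and all 10 were among the 14840 genes with at least 1 CPM in at least 1 library that were compared. CPM are read counts scaled to a common library size, with TMM factors.

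ILC2s, group 2 innate lymphoid cells, are lymphocytes without antigen receptors that release type 2 cytokines. Cells were enriched from digested mouse lungs and sorted for the markers Thy1.2, ICOS and T1/ST2 and against the lineage markers CD3, CD11b, CD45R/B220, Ly76, Ly6G and Ly6C. They were kept in culture with IL-2, and their total RNA was then extracted. WT and *Hps1*-/- mice, all on a C57BL/6 background, were given either PBS or bleomycin, which makes 4 groups, called PBS-WT and BLEO-WT for the WT mice and PBS-HPS1 and BLEO-HPS1 for the *Hps1*-/- mice. Bleomycin is a drug that injures the lung and causes fibrosis. The *Hps1*-/- mice carry a null mutation of *Hps1*, and the gene encodes a subunit of BLOC-3, a complex needed to make lysosome-related organelles. The age, sex and number of mice and the route of bleomycin of the sequenced libraries were not given with them. Each group had 1 library, so there is no replicate check and no p-value for any difference. A gene was counted as past the threshold when its ratio between a pair of libraries was at least 2-fold. The exact 95% intervals given below are for counting error only and hold no spread between mice. Copies of a molecule made by PCR are not independent, so even the counting error may be wider than these intervals.

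Total counts were between 72513619 and 87638154 reads. The bleomycin libraries were made from more cells, from 22405 for PBS-WT and 38873 for PBS-HPS1 to 84166 for BLEO-WT and 128647 for BLEO-HPS1. *Hps1* itself was read 2989, 1647, 3795 and 1347 times (in the order PBS-WT, PBS-HPS1, BLEO-WT, BLEO-HPS1) and was lower in both *Hps1*-/- libraries, with log2 ratios to WT of -1.20 with PBS and -1.18 with bleomycin. Markers of macrophages were abundant in all 4 libraries although CD11b+ and Ly6C+ cells were gated out. A list of 15 macrophage genes summed to 14250 CPM with PBS and 24187 with bleomycin in WT, and 9479 and 23227 in *Hps1*-/-. A list of 16 ILC2 genes summed to between 889 and 1043 CPM. Its most abundant genes, *Thy1*, *Il7r* and *Id2*, were between 76.9 and 551 CPM in each library. The type 2 cytokine genes *Il5* and *Il13* and the prostaglandin D2 receptor gene *Ptgdr2* were the lowest of the list, at or below 1.43 CPM in each library. The other genes of the list were all higher. Among them, *Gata3* was at 25.1 to 39.1 CPM, *Rora* at 13.2 to 78.4, *Il1rl1* at 23.8 to 40.9 and *Icos* at 32.1 to 79.9. None of the genes of the marker lists lacked reads in all libraries. In bulk RNA, fewer cells of a type and less RNA per cell cannot be told apart, so the values below are levels in the whole library and not in a cell type.

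Windows around the transcription start in the RefSeq annotation of GRCm38.p6, from 250 bases before to 50 after the start, could be matched for 6 of the 10 genes, *Trem2*, *Gpnmb*, *Apoe*, *Cd9*, *Cd36* and *Plin2*. Those of *Trem2*, *Gpnmb* and *Apoe*, which were more than 2-fold higher with bleomycin in both genotypes, are shown, for *Apoe* the 1 of 3 windows at the start of the annotated gene, beside that of *Cd36*, which was not, so that the letters of genes that moved together can be read next to those of a gene that did not.
*Trem2*: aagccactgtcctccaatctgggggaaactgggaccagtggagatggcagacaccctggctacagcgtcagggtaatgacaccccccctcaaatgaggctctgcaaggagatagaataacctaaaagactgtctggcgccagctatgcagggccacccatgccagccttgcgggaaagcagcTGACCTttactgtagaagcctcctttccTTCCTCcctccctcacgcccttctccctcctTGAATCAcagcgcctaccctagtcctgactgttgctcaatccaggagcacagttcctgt
*Gpnmb*: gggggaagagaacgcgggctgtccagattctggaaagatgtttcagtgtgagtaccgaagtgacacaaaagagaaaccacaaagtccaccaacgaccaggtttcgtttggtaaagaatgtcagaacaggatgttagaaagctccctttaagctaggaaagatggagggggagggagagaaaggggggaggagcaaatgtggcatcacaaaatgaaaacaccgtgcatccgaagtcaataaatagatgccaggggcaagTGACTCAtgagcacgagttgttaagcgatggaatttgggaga
*Apoe*: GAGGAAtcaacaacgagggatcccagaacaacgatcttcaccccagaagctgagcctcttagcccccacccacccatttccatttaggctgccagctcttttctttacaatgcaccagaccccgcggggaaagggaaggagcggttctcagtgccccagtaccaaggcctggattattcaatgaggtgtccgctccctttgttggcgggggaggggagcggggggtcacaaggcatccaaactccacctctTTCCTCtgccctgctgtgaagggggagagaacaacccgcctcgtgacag
*Cd36*: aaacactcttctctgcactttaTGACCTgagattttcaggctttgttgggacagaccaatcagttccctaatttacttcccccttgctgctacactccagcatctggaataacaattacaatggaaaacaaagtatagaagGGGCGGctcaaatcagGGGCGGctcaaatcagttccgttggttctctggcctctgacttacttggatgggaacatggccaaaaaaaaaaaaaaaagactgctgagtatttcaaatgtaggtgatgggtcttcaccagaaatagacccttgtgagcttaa
Each runs 5′ to 3′ on the strand of its gene, and capitals mark matches on either strand to the motifs searched. The windows lie at chr17:48346151-48346450 on the plus strand for *Trem2*, chr6:49036268-49036567 on the plus strand for *Gpnmb*, chr7:19699139-19699438 on the minus strand for *Apoe* and chr5:17835847-17836146 on the minus strand for *Cd36*, where the start lies inside the gene as GENCODE annotates it. The motifs were TGANTCA for AP-1, CACGTG for the E-box, GAGGAA for the core of PU.1 sites, AGGTCA for a nuclear receptor half-site, GGGCGG for the GC box and TATAAA for the TATA box, and no match of 1 motif overlapped a match of another in the windows shown. The *Trem2* window held an AP-1 match beginning 9 bases before the start, a PU.1 core on the opposite strand at -40 and a half-site on the opposite strand at -68. The *Gpnmb* window held an AP-1 match at base 9 after the start, and no other match. The *Apoe* window held PU.1 cores at its first base and at base 2 after the start. The *Cd36* window held a half-site on the opposite strand at -228 and GC boxes at -109 and -93. Such matches are common by letters alone. Of all 32851 windows, 7.81% held the AP-1 motif, 28.3% the PU.1 core, 16.3% the half-site, 35.7% the GC box, 7.15% the E-box and 13.6% the TATA box, so the matches describe these windows and show no binding.

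The 10 genes fell into separate groups with bleomycin. *Arg1*, *Apoe*, *Gpnmb*, *Trem2* and *Fabp5* were more than 2-fold higher in bleomycin-challenged than in PBS-treated libraries of both genotypes, by 3.52-fold for *Fabp5* to 46.3-fold for *Arg1* in WT and by 5.13-fold to 55.8-fold for the same genes in *Hps1*-/-. *Plin2* was higher by less than 2-fold. *Lpl* was more than 2-fold lower in both genotypes and *Cd9* lower by less than 2-fold in both. *Abcg1* and *Cd36* were past 2-fold lower in *Hps1*-/- and below it in WT, which is no test of a difference between genotypes. The lower values of *Lpl* and *Cd36* depended on whether the ratios were corrected for GC content and length, as given below, and that of *Cd9* in WT on the scaling. In BLEO-WT against PBS-WT, 5 of the 10 genes were at least 2-fold higher, where 5.28% of all compared genes were, and 1 was at least 2-fold lower, where 8.22% were. With total counts 5 were higher and 2 lower. In BLEO-HPS1 against PBS-HPS1 the counts were 5 higher, against 26.2% of all genes, and 3 lower, against 19.6%. The median log2 ratio of the 10 genes was 1.35 in WT and 1.55 in *Hps1*-/-, beside 0.09 and 0.25 over all compared genes. The scaling chosen sets that last pair of values, since the median of all genes was -0.17 in WT and -0.39 in *Hps1*-/- with total counts, and 0.32 and 0.11 with the libraries scaled to the ILC2 list. The median of the 10 genes moved too, to 1.08 in WT and 0.91 in *Hps1*-/- with total counts. It was 1.58 and 1.41 with scaling to the ILC2 list, so the order of the genotypes depended on the scaling. The comparisons share libraries with the genotype comparisons below and are not independent of them.

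**Figure D1:**
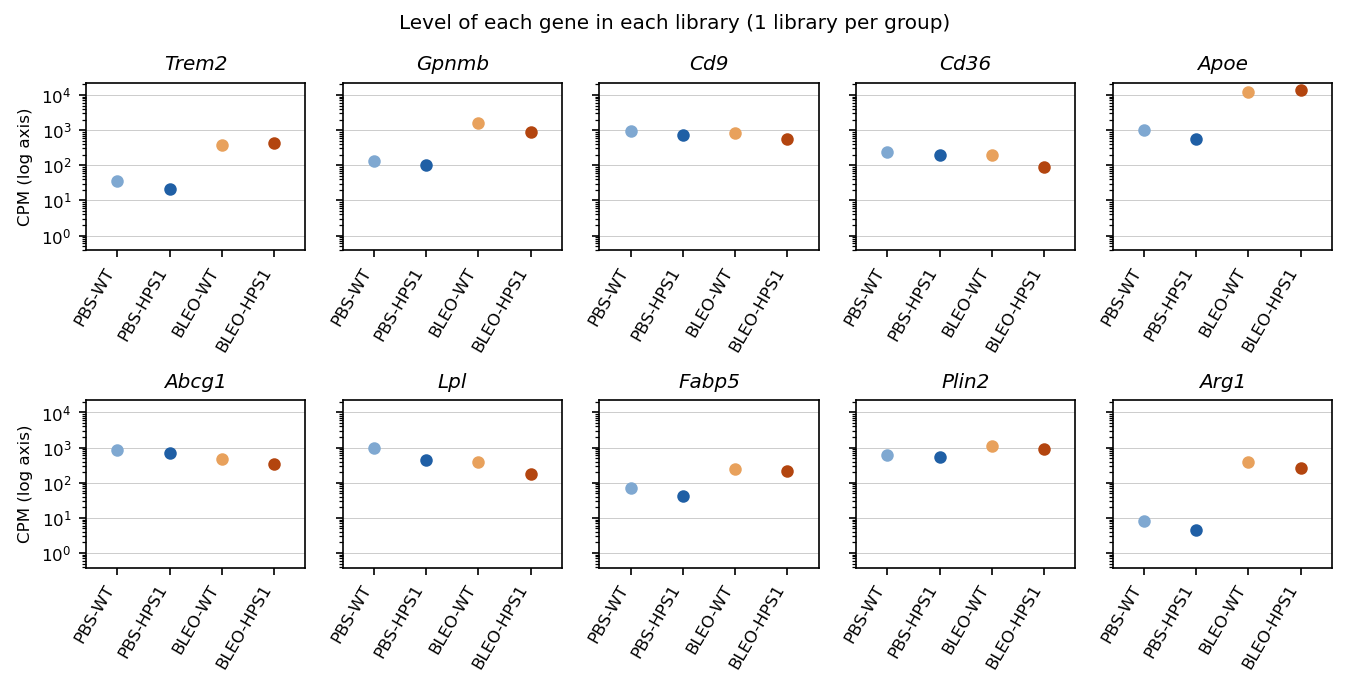
Level of each of the 10 genes in CPM on a log axis, in the 4 libraries named on the x axis, with 1 point per library and bars (mostly smaller than the points) for the exact 95% Poisson interval of the count. *Trem2*, *Gpnmb*, *Apoe*, *Fabp5* and *Arg1* sit higher in both bleomycin libraries than in both PBS libraries, from 4.59 and 8.34 CPM to 387 and 257 CPM for *Arg1*.

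The receptors and surface proteins did not move together. *Trem2* (ENSMUSG00000023992, GRCm38 chr17:48346401-48354147, plus strand), the lipid-sensing receptor, had 36.8 CPM with PBS and 386 with bleomycin in WT, and 20.5 and 423 in *Hps1*-/-. Both PBS libraries were low and both bleomycin libraries were high, with no overlap. How many of all compared genes were separated by treatment in this way was not counted, here or for the genes below. Its log2 ratio of bleomycin to PBS was 3.39 in WT (95% interval 3.34 to 3.45) and 4.37 in *Hps1*-/- (4.30 to 4.44). With a correction of the ratios for GC content and transcript length it was 3.30 and 4.26. Per kilobase of exon, *Trem2* moved from place 5665 among the compared genes in PBS-WT to place 691 in BLEO-WT.

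*Gpnmb* (ENSMUSG00000029816, chr6:49036546-49070929, plus strand), a transmembrane glycoprotein of lysosomes and the cell surface, had 134 CPM with PBS and 1552 with bleomycin in WT, and 102 and 859 in *Hps1*-/-. The bleomycin libraries were again both above the PBS libraries, but here the *Hps1*-/- library was the lower of the bleomycin pair. Its log2 ratio of bleomycin to PBS was 3.54 in WT (3.51 to 3.57) and 3.07 in *Hps1*-/- (3.04 to 3.10).

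*Cd9* (ENSMUSG00000030342, chr6:125460266-125494791, minus strand), a tetraspanin that organizes other membrane proteins, did not follow them. It had 931 CPM with PBS and 830 with bleomycin in WT, and 737 and 554 in *Hps1*-/-, so the treatments overlapped. Per kilobase of exon it was among the first 252 genes in each library. Bleomycin to PBS, the log2 ratio was -0.17 in WT (-0.18 to -0.15) and -0.41 in *Hps1*-/- (-0.43 to -0.39), and the WT value turned to 0.06 with scaling to the ILC2 list. Antisense transcripts that overlap *Cd9* held at most 182 reads in any library, and whether the counting used strand is not given in the sources used here.

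*Cd36* (ENSMUSG00000002944, chr5:17781690-17888801, minus strand), a scavenger receptor that imports fatty acids and oxidized lipoproteins, had 238 CPM with PBS and 196 with bleomycin in WT, and 201 and 90.5 in *Hps1*-/-. BLEO-HPS1 was the lowest library, and the other 3 lay close together. On the log2 scale the ratio of bleomycin to PBS was -0.28 in WT (-0.31 to -0.25) and -1.15 in *Hps1*-/- (-1.20 to -1.11). With the correction for GC content and length both changed sign, to 0.38 in WT and 0.26 in *Hps1*-/-. The transcript of *Cd36* had the lowest GC content of the 10 genes, 38.4%.

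Among the genes that carry cholesterol away, *Apoe* (ENSMUSG00000002985, chr7:19696109-19699188, minus strand), the apolipoprotein that accepts cholesterol from cells and binds TREM2, had the highest level per kilobase of exon of the 10 genes in both bleomycin libraries. It had 1029 CPM with PBS and 12175 with bleomycin in WT, and 548 and 13689 in *Hps1*-/-. These were 0.111% and 1.09% of all counts in WT and 0.0699% and 1.12% in *Hps1*-/-, and per kilobase of exon *Apoe* took place 3 of all compared genes in BLEO-WT and place 5 in BLEO-HPS1. Bleomycin against PBS gave a log2 ratio of 3.56 in WT (3.55 to 3.57) and 4.64 in *Hps1*-/- (4.63 to 4.65). With the GC content and length correction these were 3.31 and 3.68, and the *Apoe* transcript had the highest GC content of the 10, 59.5%.

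*Abcg1* (ENSMUSG00000024030, chr17:31057675-31117988, plus strand), a transporter that loads cholesterol onto HDL and a target of the oxysterol receptors LXR, went the other way. It had 868 CPM with PBS and 487 with bleomycin in WT, and 686 and 341 in *Hps1*-/-, with both bleomycin libraries below both PBS libraries. Between bleomycin and PBS the log2 ratio was -0.83 in WT (-0.85 to -0.82) and -1.01 in *Hps1*-/- (-1.03 to -0.99), a value at the 2-fold line, and -0.93 and -0.999 after the correction.

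The genes of fatty acid handling divided as well. *Lpl* (ENSMUSG00000015568, chr8:68880491-68907448, plus strand), the lipase that frees fatty acids from lipoproteins, had 957 CPM with PBS and 378 with bleomycin in WT, and 448 and 176 in *Hps1*-/-. PBS-WT was highest and BLEO-HPS1 lowest, and PBS-HPS1 and BLEO-WT lay between them. Bleomycin against PBS stood at a log2 ratio of -1.34 in WT (-1.36 to -1.32) and -1.35 in *Hps1*-/- (-1.38 to -1.32). The correction for GC content and length took these to -0.90 and -0.04, and *Lpl* had the longest exons of the 10 genes, 10478 bases, and a GC content of 43.5%.

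*Fabp5* (ENSMUSG00000027533, chr3:10012548-10016607, plus strand), a carrier of fatty acids in the cytosol, had 71.6 CPM with PBS and 252 with bleomycin in WT, and 43.0 and 221 in *Hps1*-/-. Both bleomycin libraries were above both PBS libraries. The log2 ratio was 1.82 in WT (1.77 to 1.86) and 2.36 in *Hps1*-/- (2.31 to 2.41), and a processed copy of the gene, *Fabp5l2*, held at most 2 reads in any library.

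*Plin2* (ENSMUSG00000028494, chr4:86648386-86670060, minus strand), a coat protein of lipid droplets, had 614 CPM with PBS and 1126 with bleomycin in WT, and 545 and 917 in *Hps1*-/-. The groups did not overlap by treatment, but the distance was short of 2-fold. The log2 ratio was 0.88 in WT (0.86 to 0.89) and 0.75 in *Hps1*-/- (0.73 to 0.77), and the latter was 0.34 after the GC content and length correction and 0.11 with total counts. The WT value was 1.11, past 2-fold, with scaling to the ILC2 list.

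*Arg1* (ENSMUSG00000019987, chr10:24915221-24927484, minus strand), the arginase that turns arginine into ornithine and urea and marks alternatively activated macrophages and also ILC2s, changed most of the 10. It had 8.34 CPM with PBS and 387 with bleomycin in WT, and 4.59 and 257 in *Hps1*-/-. Per kilobase of exon it was the lowest of the 10 in both PBS libraries, and it moved from place 8148 among the compared genes in PBS-WT to place 322 in BLEO-WT. The log2 ratio was 5.53 in WT (5.42 to 5.65) and 5.80 in *Hps1*-/- (5.68 to 5.95), above 99.97% of the compared genes in WT and 99.93% in *Hps1*-/-.

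**Figure D2:**
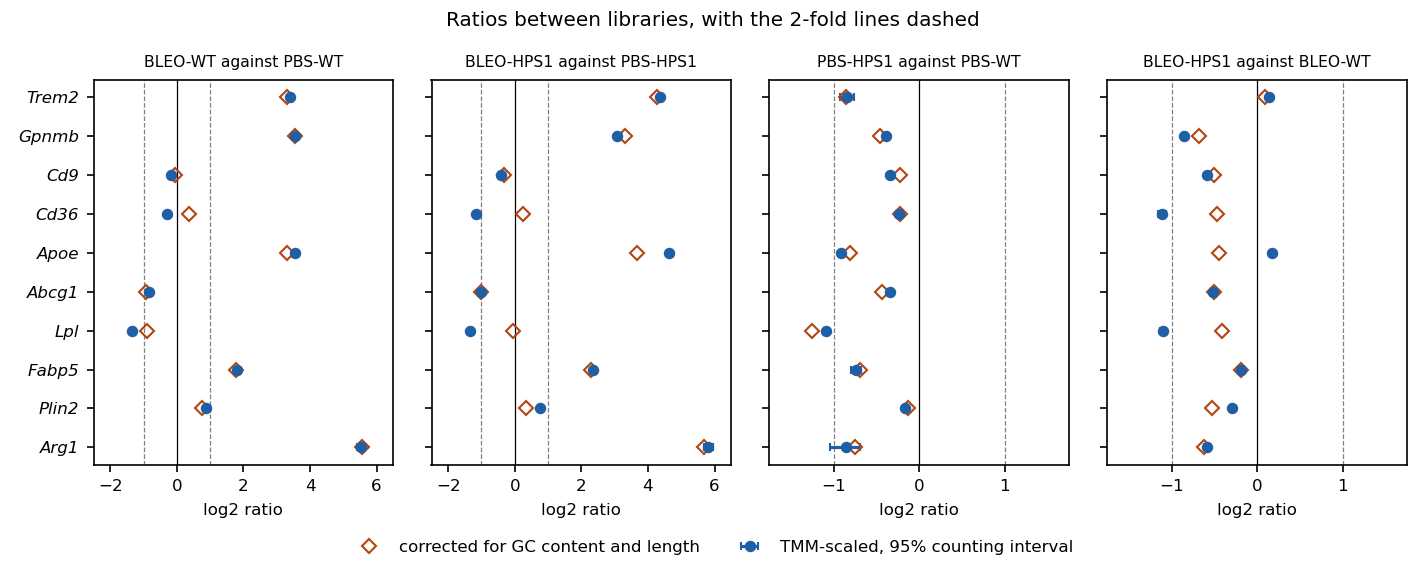
Log2 ratio between libraries for each of the 10 genes in 4 panels, bleomycin against PBS in WT and in *Hps1*-/- and *Hps1*-/- against WT with PBS and with bleomycin, with filled points for the TMM-scaled ratio with its exact 95% interval, open diamonds for the ratio corrected for GC content and length, and dashed lines at 2-fold. The open diamonds lie apart from the filled points for *Lpl* and *Cd36* and, in *Hps1*-/-, for *Apoe*, where 4.64 became 3.68.

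The ratios between libraries moved with the GC content and length of the transcripts. Across 11133 genes, the ratios of bleomycin to PBS had a Spearman's rho with GC content of 0.485 in WT and 0.602 in *Hps1*-/-, and those of *Hps1*-/- to WT one of 0.609 with bleomycin and -0.0726 with PBS. Against transcript length rho was -0.249 and -0.496 for the former and -0.471 and 0.410 for the latter. These are descriptions across genes, which are not independent replicates and share their libraries. For the 5 genes past 2-fold higher the correction left every ratio above 2-fold, and after it none of the 10 genes was at least 2-fold lower with bleomycin in either genotype.

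**Figure D3:**
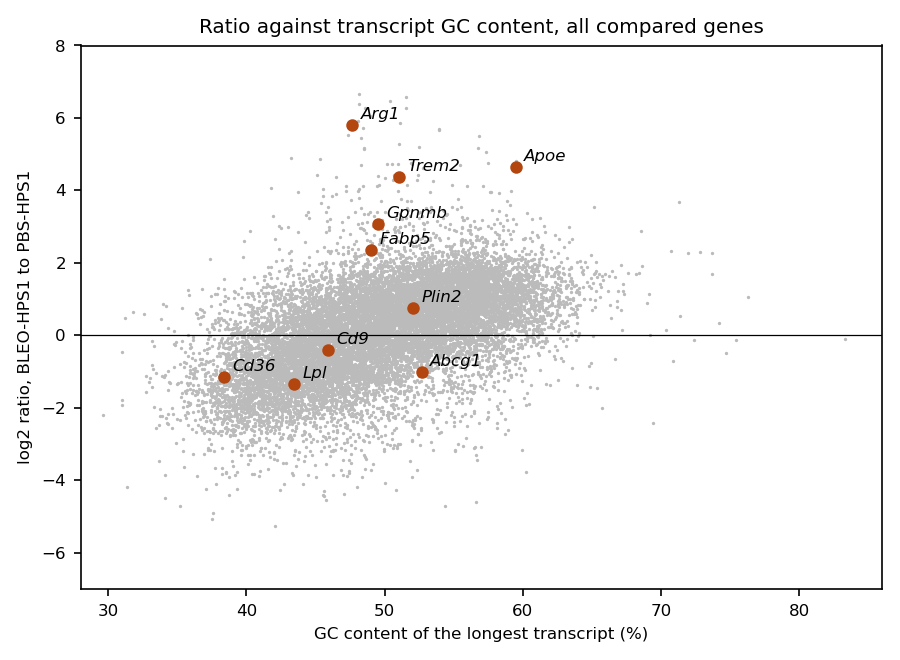
GC content of the longest transcript in percent on the x axis against the log2 ratio of BLEO-HPS1 to PBS-HPS1 on the y axis, with a grey point for each compared gene with a GC content and the 10 genes named, in orange. The grey cloud rises with GC content, and *Cd36* and *Lpl* lie inside it at low GC content. At middle GC content, *Arg1*, *Trem2* and *Gpnmb* have ratios above 99.9%, 99.7% and 99.0% of the compared genes.

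Between the genotypes no gene of the 10 differed by more than 2.16-fold with TMM scaling. Under other settings the widest log2 ratio was -1.31, for *Cd36* with bleomycin and scaling to the ILC2 list. With PBS, all 10 genes had lower values in the *Hps1*-/- library than in the WT library, except that *Plin2* and *Cd36* turned to 0.07 and 0.01 with total counts and *Plin2* to 0.01 with scaling to the ILC2 list. The log2 ratios went from -0.17 for *Plin2* to -1.09 for *Lpl*, with a median of -0.56, beside -0.19 for all compared genes. Of all compared genes, 52.8% had a ratio below that of *Plin2*. None was at least 2-fold higher, as 2.16% of all genes were, and 1, *Lpl*, was at least 2-fold lower (-1.11 to -1.08), as 3.11% of all genes were. The log2 ratio was -0.91 for *Apoe*, -0.86 for *Arg1*, -0.84 for *Trem2* and -0.73 for *Fabp5*, and between -0.39 and -0.24 for *Gpnmb*, *Abcg1*, *Cd9* and *Cd36*.

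With bleomycin, 8 of the 10 genes had lower values in the *Hps1*-/- library and the median log2 ratio was -0.55, beside -0.04 for all compared genes. Of all compared genes, 42.8% lay below *Fabp5* at -0.19, the highest of those 8. None was at least 2-fold higher, as 6.72% of all genes were, and *Cd36* at -1.11 (-1.16 to -1.07) and *Lpl* at -1.10 (-1.13 to -1.07) were at least 2-fold lower, as 10.3% of all genes were. After the GC content and length correction these were -0.47 and -0.41. *Gpnmb* was lower by 1.81-fold at a log2 ratio of -0.85 (-0.87 to -0.84), and *Arg1* and *Cd9* by 1.50-fold each. *Trem2* at 0.13 (0.11 to 0.16) and *Apoe* at 0.17 were slightly higher, but *Trem2* was at -0.06 with scaling to the ILC2 list, and *Apoe* at -0.02 with that scaling and at -0.44 with the GC content and length correction. So no direction can be given for either of them in this comparison.

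The distance between PBS and bleomycin was wider in *Hps1*-/- than in WT for some of the genes and narrower for others, as differences that were not tested. As log2 values, the ratio in *Hps1*-/- minus the ratio in WT was 1.08 for *Apoe*, 0.98 for *Trem2*, 0.54 for *Fabp5* and 0.27 for *Arg1*. It was -0.01 for *Lpl*, -0.13 for *Plin2*, -0.18 for *Abcg1*, -0.25 for *Cd9*, -0.46 for *Gpnmb* and -0.87 for *Cd36*. With the GC content and length correction that of *Lpl* moved most, to 0.86, that of *Apoe* was 0.37, that of *Cd36* was -0.11 and that of *Trem2* was 0.96. With total counts *Arg1* was at -0.11. No replicate shows whether differences of this size arise between mice of 1 group.

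The summed level of the macrophage genes was itself higher in the bleomycin libraries, so the reads on each gene were also set against the summed reads on the 15 macrophage genes of the same library. Most of that sum was the lysozyme gene *Lyz2*, with 9428 of 14250 CPM in PBS-WT. In these units *Arg1* went from 0.06 reads per 100 macrophage reads in PBS-WT and 0.05 in PBS-HPS1 to 1.60 in BLEO-WT and 1.11 in BLEO-HPS1. *Apoe* went from 7.22 and 5.79 to 50.3 and 58.9, *Trem2* from 0.26 and 0.22 to 1.59 and 1.82, and *Gpnmb* from 0.94 and 1.08 to 6.42 and 3.70. The distance between treatments was thus smaller than in CPM and still above 2-fold for *Arg1*, *Apoe*, *Trem2* and *Gpnmb* in both genotypes, with log2 changes of 1.78 to 4.77.

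*Fabp5* stood at log2 changes of 1.05 in WT and 1.07 in *Hps1*-/- in these units. *Plin2* stood at 0.11 and -0.54, close to 0 in WT and below it in *Hps1*-/-. *Lpl*, *Abcg1* and *Cd36* were at least 2-fold lower per macrophage read in both genotypes, at -2.10 and -2.64, -1.60 and -2.30, and -1.04 and -2.45. Changes per macrophage read were not corrected for GC content and length. In CPM that correction took *Lpl* to -0.90 in WT and -0.04 in *Hps1*-/-, and *Cd36* to 0.38 and 0.26. Per macrophage read *Cd9* was at -0.93 and -1.70. Between genotypes with bleomycin, *Gpnmb* was at -0.79, *Lpl* at -1.04 and *Cd36* at -1.05. Over the 10 genes the median log2 change per macrophage read with bleomycin was 0.58 in WT and 0.26 in *Hps1*-/-. Between genotypes it was 0.03 with PBS and -0.49 with bleomycin. Some of these changes depended on the reference. Set against the summed reads of only 5 macrophage genes, *Fabp5* with bleomycin was at 0.90 in WT and 0.92 in *Hps1*-/-. Its rise was then short of 2-fold in both genotypes. Against the same 5 genes *Plin2* was at -0.04 and -0.69, and *Cd9* at -1.08 and -1.85.

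**Figure D4:**
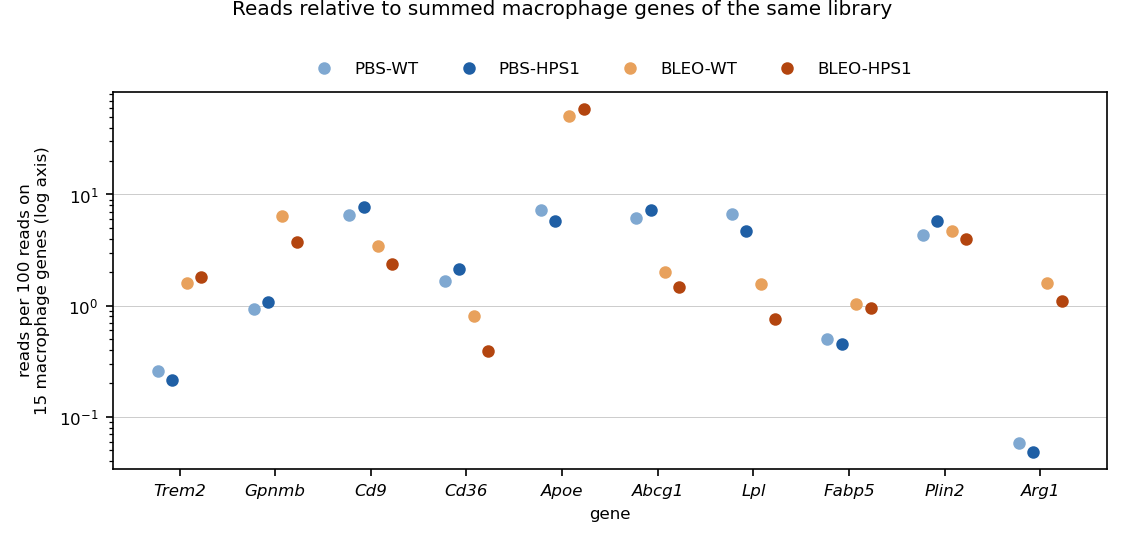
Reads on each of the 10 genes per 100 reads on 15 macrophage genes of the same library, on a log axis, with 1 point for each of the 4 libraries. Points of the bleomycin libraries lie above those of the PBS libraries for *Trem2*, *Gpnmb*, *Apoe*, *Fabp5* and *Arg1* and below them for *Cd9*, *Cd36*, *Abcg1* and *Lpl*.

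The split of the 10 genes could be set beside lists of macrophage genes. For this and each later list, the shares of all compared genes at least 2-fold higher and lower with bleomycin were 5.28% and 8.22% in WT. In *Hps1*-/- they were 26.2% and 19.6%. Of the 15 macrophage genes, which include the lysozyme gene *Lyz2*, *Cd14* and the perforin-like *Mpeg1*, 7 were at least 2-fold higher and 0 lower with bleomycin in WT, and 12 were higher and 1 lower in *Hps1*-/-, with median log2 ratios of 0.87 and 1.39. Of 14 genes of resident alveolar macrophages, which include the chitinase-like *Chil3*, the mannose receptor gene *Mrc1* and *Ear2*, 0 were higher and 8 were lower in WT, and 0 were higher and 10 lower in *Hps1*-/-, with medians of -1.21 and -2.06. After the GC content and length correction those medians were -1.16 and -1.82. The alveolar list summed to 7289 CPM with PBS and 5341 with bleomycin in WT, and 6570 and 2881 in *Hps1*-/-.

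By the root mean square difference of centred log2 CPM over the 4 libraries, the summed level of the alveolar macrophage list was the nearest of the marker lists to *Cd36* (0.10) and to *Lpl* (0.43), and that of the macrophage list was nearest to *Plin2* (0.20). For *Cd9* it was the list of alveolar type 2 cells (0.20), and for *Abcg1* the list of mast cells, basophils and eosinophils (0.13), with the alveolar macrophage list at 0.16. The list of mast cells, basophils and eosinophils was also close behind the alveolar macrophage list for *Lpl*, at 0.45. *Arg1*, *Apoe*, *Trem2*, *Gpnmb* and *Fabp5* lay 0.45 to 2.14 from their nearest list, that of dendritic cells. The sum of that list was mostly 1 gene, *H2-Ab1*, an MHC class II gene that macrophages also express, with 2073 CPM with PBS and 3634 with bleomycin in WT, and 1072 and 6406 in *Hps1*-/-. Of its 10 genes 0 were at least 2-fold higher and 3, *Cd209a*, *Clec9a* and *Siglech*, were lower with bleomycin in WT, with a median of -0.18. In *Hps1*-/- 3 of the 10 were higher and 1 was lower, with a median of 0.36. The sum of the macrophage list was likewise mostly *Lyz2*, with 9428 of 14250 CPM in PBS-WT. That of the alveolar macrophage list was mostly *Chil3*, with 3926 of 7289 CPM in PBS-WT and 1758 of 2881 in BLEO-HPS1.

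Among single genes the same measure, over 9413 genes with a mean of at least 10 CPM, put *Apoe* and *Trem2* beside each other at 0.11. *C1qc*, which encodes a chain of complement C1q, was the nearest gene to *Apoe* at 0.09, with 83.4 CPM with PBS and 885 with bleomycin in WT, and 44.1 and 1189 in *Hps1*-/-. The other neighbour of *Trem2* was *AA467197* at 0.12. *Pf4*, a chemokine, lay 0.06 from *Fabp5*. *C3ar1*, the receptor of complement C3a, and *Kcnk13*, a potassium channel, were nearest to *Gpnmb* at 0.23 and 0.25. *Arg1* had no close neighbour, with *Syngr1* at 0.48 and *Fcna* at 0.66.

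The other 5 genes had nearer neighbours than *Arg1* and *Gpnmb*. These were *Ppp2r5c* and *Prps2* for *Cd9* at 0.01 each, *Mbtps2* and *Jarid2* for *Cd36* at 0.02 each, *Wipi1* and *Pacs2* for *Plin2* at 0.02 and 0.03, *Parp14* and *Sec62* for *Abcg1* at 0.03 and 0.04, and *Trim30b* and *Gpr141* for *Lpl* at 0.11 and 0.18. A likeness over 4 libraries is a description of these libraries.

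Other genes of the scar macrophage program were followed in a list of 20. The 3 most abundant were the cathepsin genes *Ctsb* and *Ctsd*, which encode lysosomal proteases, and *Fn1*, the gene of fibronectin. *Fn1* had 1432 CPM with PBS and 10587 with bleomycin in WT, and 1058 and 5995 in *Hps1*-/-, and *Ctsb* had 1121 and 4434 in WT and 772 and 4226 in *Hps1*-/-. Of the 20 genes, 11 were at least 2-fold higher with bleomycin in WT and 14 in *Hps1*-/-, 0 were lower in either, and the medians were 1.45 and 1.87. Between the genotypes the medians of the list were -0.44 with PBS and -0.15 with bleomycin.

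TREM2 signalling genes changed less than *Trem2*. Of 12 genes, 1 was at least 2-fold higher with bleomycin in WT and 3 in *Hps1*-/-, 0 were lower in either, and the medians were 0.14 and 0.11. *Tyrobp*, the adaptor of TREM2, had 439 CPM with PBS and 549 with bleomycin in WT, and 283 and 749 in *Hps1*-/-, which is 0.32 on the log2 scale between the treatments in WT and 1.40 in *Hps1*-/-, and 0.14 and 0.32 after the GC content and length correction. The kinase gene *Syk* was between 498 and 561 CPM in each library, and the adaptor gene *Pik3ap1* had log2 ratios of -0.98 and -0.92.

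The oxysterol and fatty acid receptor pathways, LXR and PPAR, which control *Abcg1*, *Apoe*, *Lpl*, *Cd36* and *Plin2* in macrophages, had 17 compared genes besides these. In WT 2 were at least 2-fold higher and 0 lower with bleomycin, in *Hps1*-/- 2 were higher and 1 lower, and the medians were 0.02 and 0.40. *Pltp*, the phospholipid transfer protein, had 196 CPM with PBS and 433 with bleomycin in WT, and 156 and 628 in *Hps1*-/-. The receptor gene *Rxra* was between 221 and 243 CPM, and *Cpt1a*, the gate of fatty acid oxidation, between 247 and 412.

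Of 23 compared genes of lipid uptake, droplets and cholesterol trafficking, 5 were at least 2-fold higher and 2 lower in WT, 11 higher and 3 lower in *Hps1*-/-, and the medians were 0.47 and 0.79. The endocytic receptor gene *Lrp1* had 1499 CPM with PBS and 2764 with bleomycin in WT, and 1288 and 1752 in *Hps1*-/-. *Npc2* and *Npc1*, which take cholesterol out of lysosomes, stood at log2 ratios of 0.84 and 1.16 in WT and 1.72 and 0.55 in *Hps1*-/- between the treatments. With the GC content and length correction they stood at 0.75 and 1.47 in WT and at 1.65 and 1.66 in *Hps1*-/-, so the gap between the genes in *Hps1*-/- was not kept.

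Of 17 genes of arginine use and alternative activation other than *Arg1*, 4 were at least 2-fold higher and 0 lower in WT, 7 higher and 4 lower in *Hps1*-/-, and the medians were 0.55 and 0.83. In *Hps1*-/-, 26.2% of all compared genes were at least 2-fold higher and 19.6% lower. *Il4ra*, the receptor of IL-4 and IL-13, had 268 CPM with PBS and 482 with bleomycin in WT, and 284 and 505 in *Hps1*-/-. *Chil3* and *Mrc1*, which are also on the alveolar macrophage list, were at -0.23 and 0.12 in WT and at -1.02 and -1.23 in *Hps1*-/-, and in the latter at -0.88 and -0.22 after the GC content and length correction. With the GC content and length correction the list's median in *Hps1*-/- was 0.49.

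**Figure D5:**
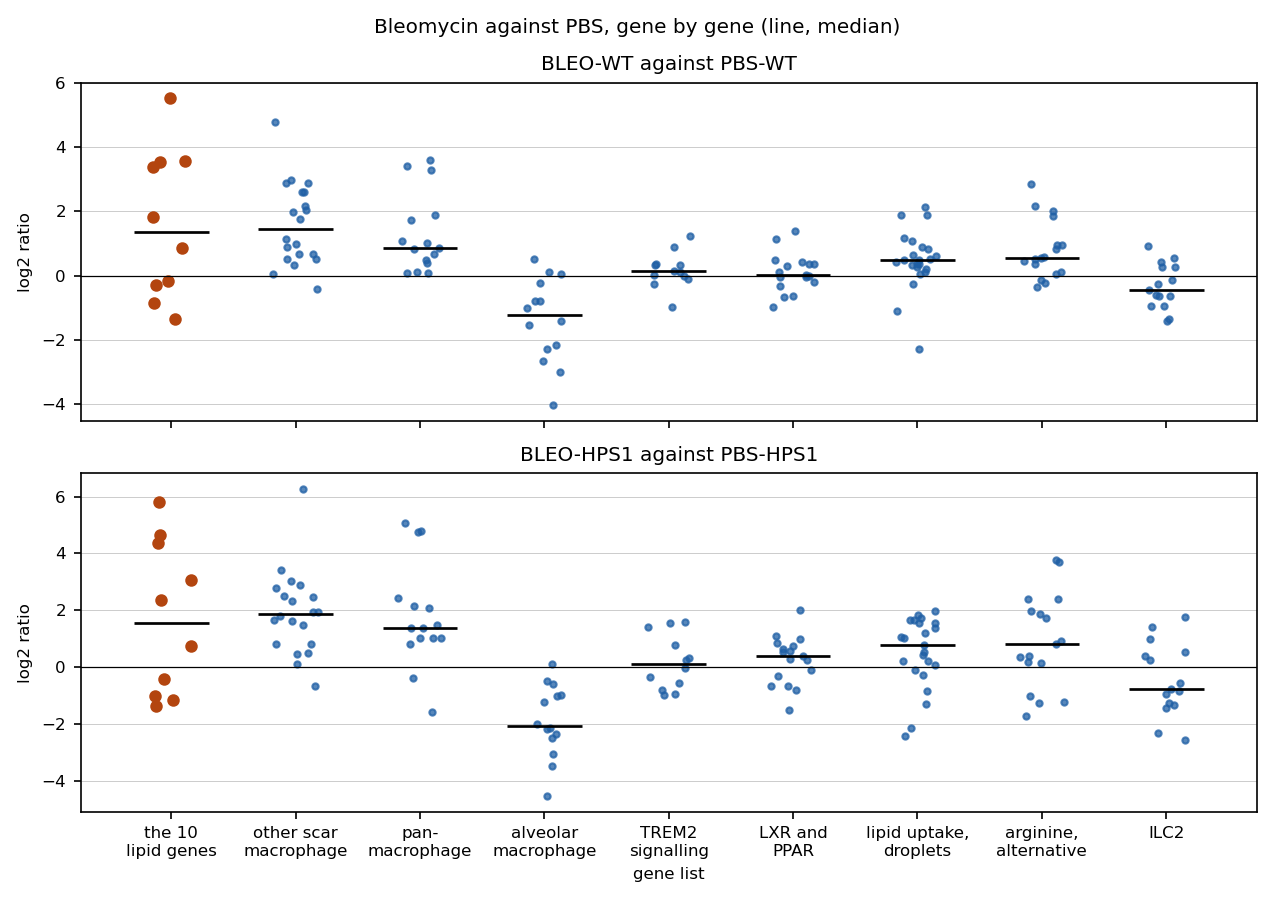
Log2 ratio of bleomycin to PBS in WT (upper panel) and in *Hps1*-/- (lower panel) for the compared genes of 9 gene lists on the x axis, with 1 point per gene and a black line at the median of each list. The points of the 10 genes reach from below 0 to above 5, the other scar macrophage genes lie mostly above 0 with medians of 1.45 and 1.87, and the alveolar macrophage genes lie mostly below it with medians of -1.21 and -2.06.

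Of 15 compared ILC2 genes, 0 were at least 2-fold higher and 2 lower with bleomycin in WT, and 3 were higher and 5 lower in *Hps1*-/-, with medians of -0.46 and -0.75, or -0.33 and -0.17 after the GC content and length correction. Markers of other cell types also differed between the libraries. Genes of fibroblasts summed to 742 CPM with PBS and 1579 with bleomycin in WT, and 994 and 5473 in *Hps1*-/-, and genes of dendritic cells, mostly *H2-Ab1*, to 2449 and 4040 in WT and 1438 and 6984 in *Hps1*-/-. Neutrophil genes summed to 1679 and 884 CPM in WT and 465 and 467 in *Hps1*-/-, and alveolar type 2 genes to 1547 and 955 CPM in WT and 1075 and 853 in *Hps1*-/-. T cell genes summed to between 708 and 1508 CPM, endothelial genes to between 1026 and 1629, NK cell genes to between 115 and 405, B cell genes to between 117 and 324, mast cell, basophil and eosinophil genes to between 93.5 and 236, and platelet genes to between 77.4 and 91.8. The part of the macrophage, dendritic and other marker genes, and of the number of cells, in the values of the 10 genes was not tested.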

How the data were processed

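RNA of sorted lung ILC2s was sequenced in 4 groups with 1 library each, and groups were taken from the sample labels. The authors deposited raw read counts for each Ensembl gene, which were not normalized. The aligner, the counter, the genome build and the annotation are not given in the sources used here. Libraries came from total RNA with a SMARTER mRNA-Seq kit, which amplifies cDNA from few cells. Total counts were 72513619 to 87638154 reads.

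Library sizes were scaled with TMM factors of edgeR 4.0.16 in R 4.3.3 (1.08 and 0.895 for the WT libraries with PBS and with bleomycin, and 1.27 and 0.816 for the *Hps1*-/- libraries), and log2 CPM used a prior count of 2. Ratios have exact Clopper-Pearson intervals at 95% and single levels exact Poisson intervals, for counting error only. With 1 library per group edgeR's test could not be fitted, and no p-value is given. Positions, exon lengths and GC contents came from GENCODE M21 on GRCm38, where 49056 of the identifiers were found. Lists were matched by identifier, since 3 of 239 list genes carry another name in the table. Ratios were also corrected by loess (span 0.3) for GC content and log2 length. They were computed too with DESeq2 1.42.0 size factors, total counts, scaling to the ILC2 list and a prior count of 0.5 or 10. Genes were also counted at a 4-fold threshold. Using no filter, or asking for at least 10 reads in every library, leaves the ratios of the 10 genes as they are, since all 10 pass. Named genes were the 10, the 3 most abundant genes of the lists described gene by gene and the 2 nearest genes to each of the 10. A neighbour of *Fabp5* is not reported here. *Il5*, *Il13*, *Ptgdr2*, *Gata3*, *Rora*, *Il1rl1*, *Icos* and *Hps1* were named outside this rule, all but *Hps1* after their values were seen. The 10 genes and the lists were chosen with earlier results of these data known. The steps were tested on simulated data.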

Additional observations from a re-analysis of the deposited data

Results flagged for a closer look

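*Trem2* and *Apoe* had genotype ratios of opposite sign with PBS and with bleomycin. The log2 ratio of *Hps1*-/- to WT for *Trem2* was -0.84 with PBS and 0.13 with bleomycin, and the bleomycin value minus the PBS value was 0.98. For *Apoe* the ratios were -0.91 and 0.17, and the difference was 1.08. With 1 library per group neither difference was tested. The bleomycin ratio was negative for *Trem2* with scaling to the ILC2 list and for *Apoe* with that scaling and with the GC content and length correction. *Apoe* was above *Trem2* in GC content, at 59.5% against 51.0%, and its difference fell to 0.37 with the correction while that of *Trem2* was 0.96. With total counts both differences were smaller, at 0.70 for *Apoe* and 0.60 for *Trem2*. The summed macrophage genes were lower in PBS-HPS1 than in PBS-WT, at 9479 against 14250 CPM, and similar with bleomycin, at 23227 against 24187 CPM; their part in these ratios was not tested.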

How the results depend on the processing

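No paired analysis was possible because each group has 1 library. The counts of genes at least 2-fold higher, 5, 5, 0 and 0, were the same under DESeq2 size factors, total counts, both other prior counts and the GC content and length correction. With scaling to the ILC2 list the first was 6, with *Plin2* added, and the others were the same. At 4-fold they were 4 for bleomycin against PBS in WT, 5 in *Hps1*-/- and 0 for both genotype comparisons. Counts of genes at least 2-fold lower moved more. Neither of the other filters could change any count, since all 10 genes pass them and the ratios do not depend on the filter. For BLEO-WT against PBS-WT the count was 1, and 2 with total counts, 0 with the GC content and length correction and 0 at 4-fold. For BLEO-HPS1 against PBS-HPS1 it was 3, and 4 with total counts, 0 with the correction and 0 at 4-fold. For PBS-HPS1 against PBS-WT it was 1, and 0 with total counts, 0 with scaling to the ILC2 list and 0 at 4-fold. Between genotypes with bleomycin it was 2, and 3 with scaling to the ILC2 list, 0 with the correction and 0 at 4-fold. The log2 ratio of *Cd36* in BLEO-HPS1 against PBS-HPS1 turned from -1.15 to 0.26 with the correction. With 5 macrophage genes in place of 15 as the reference, the median log2 change of the 10 genes was -0.55 instead of -0.49 for BLEO-HPS1 against BLEO-WT, -0.033 instead of 0.0263 for PBS-HPS1 against PBS-WT, 0.43 instead of 0.58 for BLEO-WT against PBS-WT and 0.11 instead of 0.26 for BLEO-HPS1 against PBS-HPS1. The causes were not tested. Counting error was widest for *Arg1*, with 650 and 454 reads in the PBS libraries, and the spread between mice is unknown.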
